A study of Mus musculus with 4 samples.

Results

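Notch receptors, their DNA-binding partner Rbpj, the target genes Hes1 and Nrarp and the Deltex genes Dtx1, Dtx3 and Dtx4 were read in lymphoid-primed multipotent progenitors (LMPPs), bone marrow cells that can still form lymphoid and myeloid cells. The members were every probe set, a set of short probes for 1 transcript, whose gene symbol in the array annotation was exactly Notch1, Notch2, Notch3, Notch4, Hes1, Dtx1, Dtx3, Dtx4, Nrarp or Rbpj. This gave 20 of 45037 probe sets, for 10 of 18193 genes. The cells were sorted as lineage-negative, Sca-1 and c-Kit positive and Flt3-high from Lyl1-null mice and from wild-type mice, both on the C57Bl/6 background and 6 to 8 weeks old. Lyl1 belongs to the basic helix-loop-helix family of transcription factors and is active in early blood cells, and the design asks which transcripts differ in these cells in its absence. There were 2 Lyl1-null and 2 wild-type arrays, and those of the null mice are called the libraries labelled KO 1 and KO 2, after their titles. The sources used here say neither which part of Lyl1 the null allele removes nor whether the arrays of a group came from separate mice. P-values therefore measure only the spread between these arrays, which may be technical, and with so few arrays all values are imprecise.

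Notch receptors are cell surface proteins that are cut when a ligand of the Delta or Jagged family on a neighbouring cell binds them. The freed intracellular part enters the nucleus, joins Rbpj on DNA and switches on targets such as Hes1, a repressor, and Nrarp, which feeds back to dampen the signal. Deltex proteins are ubiquitin ligases, first known in Drosophila as modifiers of Notch signalling. In blood, Notch1 signalling in the thymus directs progenitors to the T lineage, and Notch2 is needed for marginal zone B cells.

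The check of the targeted gene sets a limit on all values that follow. Lyl1 read 5.14 in KO 1 and 10.32 in KO 2, as the libraries are labelled, against 12.34 and 12.29 in the wild-type libraries, on the log2 scale of RMA expression values. The library labelled KO 2 thus kept 25.1% of the wild-type mean, which goes against its label. It also stood apart in Xist, a transcript of female cells, at 14.26 against 5.81 to 6.30 in the other libraries. Comparing it with any other library, 1076 to 1922 of 22519 probe sets above the expression filter differed by 2-fold or more, and 79 to 241 did so in comparisons that left it out. Both libraries labelled KO are therefore given separately throughout. Of the markers of the sorted cells, Kit, Flt3, Cd34, Ptprc and Cd48 all lay above the filter in the mean, and all 5 read lower in both libraries labelled KO than in either wild-type library. Of all probe sets above the filter, 26.4% did so. Flt3 was at 11.80 and 11.26 in the libraries labelled KO, against 11.92 and 12.12 in wild type, Kit at 9.56 and 8.97, against 10.07 and 10.27, and Cd48 at 8.35 and 8.00, against 9.13 and 9.28. The summed linear signal of the 5 genes was 14729 and 10777 in the libraries labelled KO, against 16968 and 18341 in wild type, and its part in the results below was not tested. Ly6a, which encodes Sca-1, was also on the list but had no probe set naming it alone, so it was not read. In sorted pools such as these, fewer expressing cells and less RNA per cell cannot be told apart.

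Promoter windows are shown for 3 members because they hold, or lack, the letters searched for. These are Notch1 and Rbpj, whose brightest probe sets read lower in both libraries labelled KO, and Nrarp, a target of the pathway. The choice of Notch1 and Rbpj was made after their values were seen. Each is the 250 bases before an annotated start in RefSeq, build GRCm38.p6, written 5′ to 3′ on the gene's strand. Capitals mark matches on either strand to TGGGAA, the core that Rbpj is known to bind, or to CANNTG, the E-box that Lyl1 with E proteins is known to bind. The Notch1 window is chr2:26503823-26504072 on the minus strand, the Rbpj window chr5:53590096-53590345 on the plus strand and the Nrarp window chr2:25180508-25180757 on the plus strand.
Notch1: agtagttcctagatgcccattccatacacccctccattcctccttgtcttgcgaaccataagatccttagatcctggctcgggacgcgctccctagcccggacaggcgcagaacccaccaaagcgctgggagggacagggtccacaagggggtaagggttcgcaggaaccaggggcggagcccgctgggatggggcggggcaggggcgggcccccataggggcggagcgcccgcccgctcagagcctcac
Rbpj: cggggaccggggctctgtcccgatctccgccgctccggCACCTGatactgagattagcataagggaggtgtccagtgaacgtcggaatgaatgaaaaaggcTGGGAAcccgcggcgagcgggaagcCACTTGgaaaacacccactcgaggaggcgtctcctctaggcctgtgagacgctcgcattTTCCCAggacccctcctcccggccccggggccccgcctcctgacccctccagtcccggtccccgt
Nrarp: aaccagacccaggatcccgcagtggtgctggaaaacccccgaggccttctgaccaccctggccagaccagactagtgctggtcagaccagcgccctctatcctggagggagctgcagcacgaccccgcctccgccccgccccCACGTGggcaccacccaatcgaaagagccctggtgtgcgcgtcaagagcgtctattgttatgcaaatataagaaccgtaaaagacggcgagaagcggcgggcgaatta

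The Rbpj window held 2 matches to TGGGAA, from 149 to 144 and from 65 to 60 bases before the start, and 2 to CANNTG, from 212 to 207 and from 124 to 119 bases before it. No match of one motif overlapped a match of the other. Nrarp held 1 match to CANNTG, from 108 to 103 bases before the start, and none to TGGGAA. The Notch1 window held neither. Of 32851 windows of the same length in the table, 21.6% held TGGGAA and 66.2% held CANNTG, so these matches are common. They describe letters in the reference, not binding in these cells. RefSeq windows were matched for 7 of the 10 genes, with a second start for Rbpj, whose window overlaps the one shown. Hes1, Dtx3 and Dtx4 had no entry.

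None of the 14 probe sets above the expression filter passed the test across all probe sets (limma, Benjamini-Hochberg adjusted p from 0.611 to 0.993). The filter kept probe sets whose mean over the 4 arrays was at or above the median of those means, 5.69 in log2 units, and 8 of the 10 genes had a probe set above it. Over the whole table, 2 of 22519 probe sets passed at 0.05, those of Ctse and Lrmda given above, 0.00888% of those tested. At an unadjusted p under 0.05 there were 2 of the 14, 1 of Dtx4 with a higher value and 1 of Notch1 with a lower one, against 7.39% of all probe sets tested. The groups did not overlap in 7 of the 14. In 3 of these both libraries labelled KO were higher, against 17.4% of all probe sets, and in 4 both were lower, against 26.4%. The 3 were both probe sets of Dtx4 and that of Hes1. Hes1 passed the filter only through the libraries labelled KO, with wild type at 5.66 and 5.62. The 4 were both probe sets of Notch1 and the brightest of Rbpj and of Nrarp. The median difference of the 14 was -0.03, beside -0.07 over all probe sets tested. For a single probe set, the exact permutation test of 2 arrays against 2 cannot go below a two-sided p of 0.333.

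**Figure D1:**
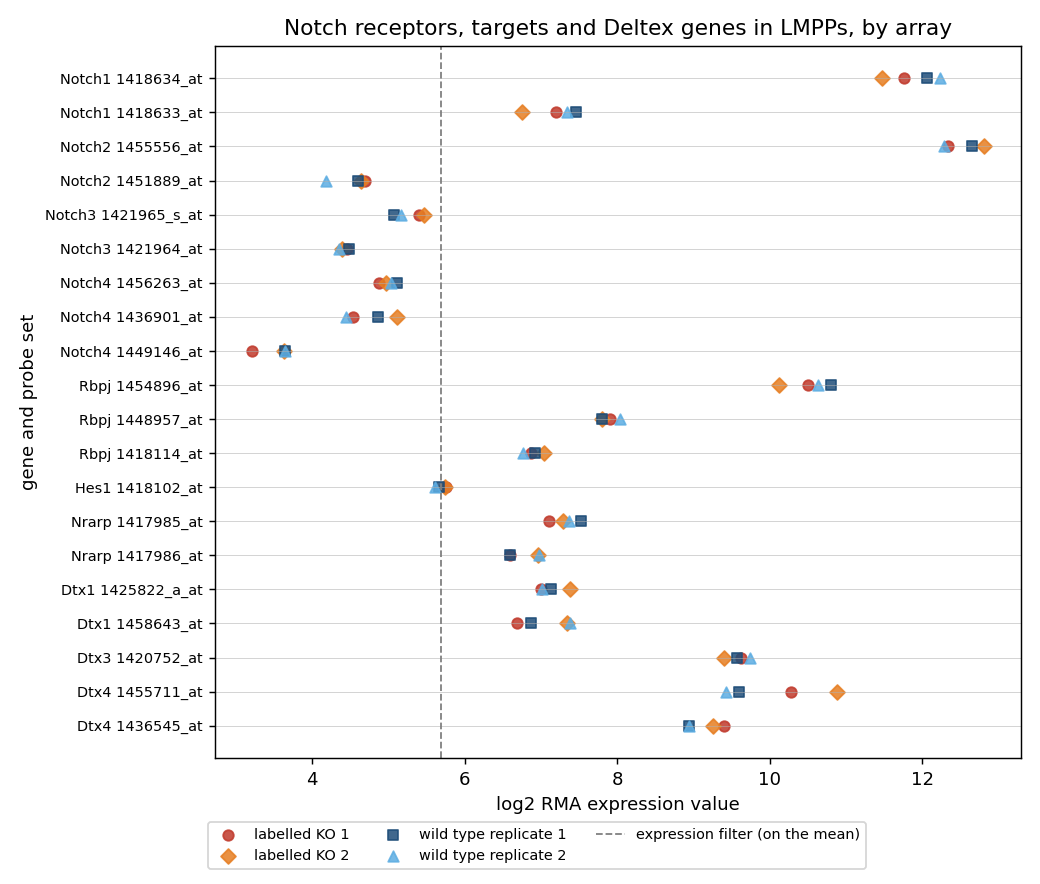
Log2 RMA expression value (horizontal axis) of each of the 20 probe sets (rows, ordered by role) on each array, with circles and diamonds for the libraries labelled KO and squares and triangles for wild type. The dashed line is the expression filter of 5.69 on the mean, which 14 probe sets passed. Values of different probe sets are not comparable with each other.

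Of the receptors, Notch1 (Entrez gene 18128) read lower in both libraries labelled KO on both of its probe sets. The brighter one, 1418634_at, read 11.76 and 11.47 in the libraries labelled KO 1 and KO 2, against 12.06 and 12.24 in the wild-type libraries. The second, 1418633_at, read 7.19 and 6.76 in those labelled KO, against 7.46 and 7.35 in wild type. Groups did not overlap on either, and the library labelled KO 2 was the lowest on both. The mean difference was -0.53 (SE 0.19, limma adjusted p = 0.611) on the first and -0.43 (SE 0.21, adjusted p = 0.611) on the second, so neither passed.

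Relative to the wild-type mean, Notch1 stood at 76.5% in the library labelled KO 1 and at 62.6% in the one labelled KO 2 on the brighter probe set. On the other these shares were 86.3% and 63.8%. Without the library labelled KO 2 the difference was -0.39 on 1418634_at (limma adjusted p = 0.767) and -0.21 on 1418633_at (adjusted p = 0.846). Without the library labelled KO 1 both probe sets came closer to the threshold, at -0.68 and -0.65, each with a limma adjusted p of 0.0655. In that fit 10.1% of all probe sets tested passed, 8.33% with lower and 1.75% with higher values.

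Notch2, the other receptor with a probe set above the filter, overlapped between the groups. Its bright probe set, 1455556_at, read 12.33 and 12.81 in the libraries labelled KO 1 and KO 2, against 12.65 and 12.29 in wild type. The 2 libraries labelled KO lay on opposite sides of the wild-type mean, by -0.13 and 0.34. The mean difference of 0.10 (SE 0.24, limma adjusted p = 0.873) was smaller than the gap of 0.36 between the wild-type libraries. A dim second probe set, 1451889_at, read 4.69 and 4.65 in those labelled KO and 4.60 and 4.18 in wild type, below the filter.

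Notch3 and Notch4, receptors known mainly from vascular smooth muscle and endothelium, had no probe set above the filter. Notch3 read 5.40 and 5.46 in the libraries labelled KO on 1421965_s_at, against 5.07 and 5.16 in wild type. This was a difference of 0.32, and its other probe set, 1421964_at, differed by 0.0006. The 3 Notch4 probe sets had differences of -0.15, 0.18 and -0.22, with values from 3.21 to 5.12 in the libraries labelled KO and from 3.64 to 5.11 in wild type. With no filter, so that all 20 probe sets were tested, the 5 of Notch3 and Notch4 had limma adjusted p-values from 0.581 to 1. Signal this dim is compressed by background, and no level is claimed for either gene.

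**Figure D2:**
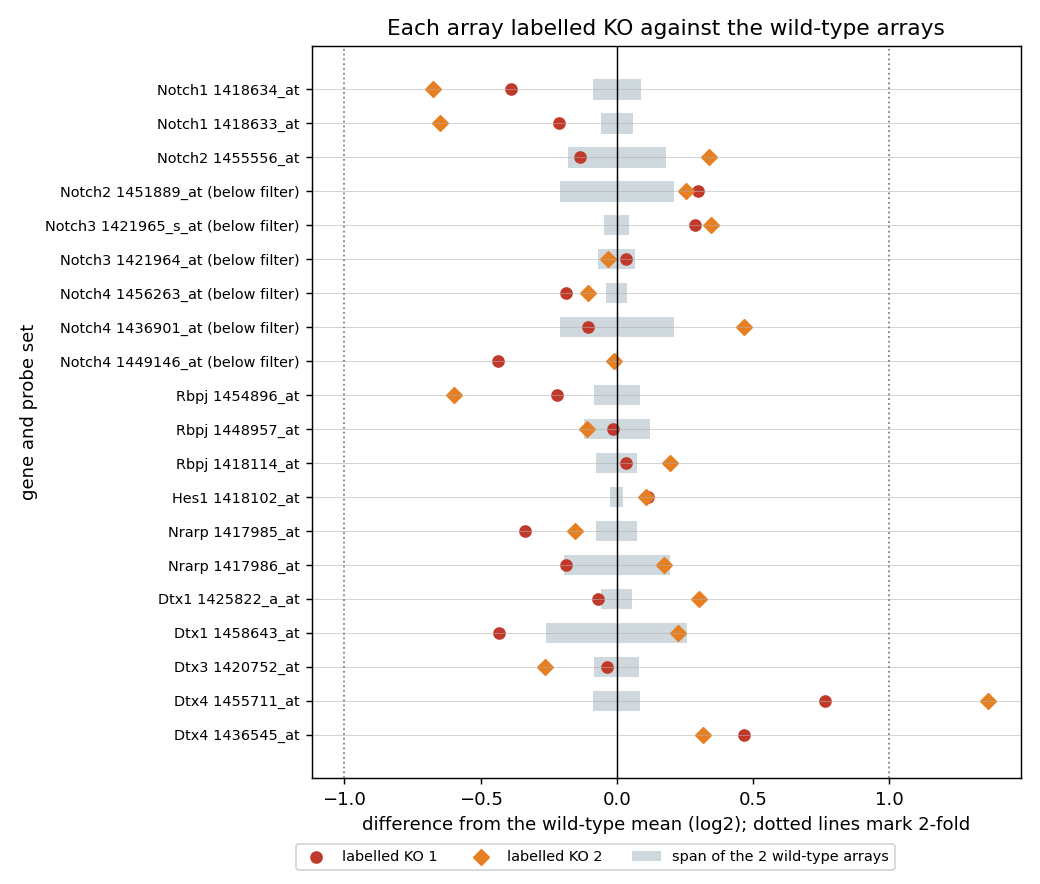
Difference of each library labelled KO from the wild-type mean (log2, horizontal axis) for the 20 probe sets (rows), with circles for KO 1 and diamonds for KO 2. Grey bars span the 2 wild-type arrays and dotted lines mark 2-fold. Both probe sets of Notch1 lie left of the grey bars and both of Dtx4 right of them, and Dtx4 1455711_at in the library labelled KO 2, at 1.36, is the 1 point past 2-fold.

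Rbpj (Entrez gene 19664), which carries the signal of all Notch receptors to DNA, gave different answers on its 3 probe sets. The brightest, 1454896_at, read 10.50 and 10.12 in the libraries labelled KO 1 and KO 2, against 10.81 and 10.64 in wild type. It was lower in both, with a mean difference of -0.41 (SE 0.20, limma adjusted p = 0.611). The other probe sets overlapped between the groups. On 1448957_at the libraries labelled KO read 7.90 and 7.81, against 7.79 and 8.04 in wild type (difference -0.06, SE 0.18). On 1418114_at they read 6.88 and 7.04, against 6.92 and 6.77 in wild type (difference 0.11, SE 0.17).

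Disagreement between the Rbpj probe sets was larger in one library. Their differences from wild type spanned 0.25 in the library labelled KO 1 and 0.79 in the one labelled KO 2, where the brightest stood at -0.60 and 1418114_at at 0.19. The mean of the 3 probe sets gave -0.12 (limma adjusted p = 0.742).

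Among the targets, Hes1 (Entrez gene 15205) had values close together on all arrays. Its 1 probe set, 1418102_at, read 5.76 and 5.75 in the libraries labelled KO, against 5.66 and 5.62 in wild type. Both were above both wild-type libraries, by 0.12 and 0.11. The mean difference of 0.11 (SE 0.16, limma adjusted p = 0.790) was below its standard error. The wild-type values themselves lay under the filter of 5.69, so Hes1 entered the test by a narrow margin of its mean.

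Nrarp (Entrez gene 67122), an ankyrin repeat protein that destabilises the Notch complex, was read by 2 probe sets. On the brighter, 1417985_at, the libraries labelled KO 1 and KO 2 read 7.11 and 7.29, against 7.52 and 7.37 in wild type. Both were below the wild-type range, with a mean difference of -0.25 (SE 0.17, limma adjusted p = 0.629). On 1417986_at they read 6.60 and 6.96, against 6.59 and 6.98 in wild type. Here the groups spanned nearly the same range, and the mean difference was -0.007 (SE 0.22).

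The Deltex genes held the member with the largest difference in absolute value, Dtx4 (Entrez gene 207521), a ubiquitin ligase reported to act on Notch at the cell membrane. Its probe set 1455711_at read 10.28 and 10.88 in the libraries labelled KO 1 and KO 2, against 9.60 and 9.43 in wild type. The second, 1436545_at, read 9.41 and 9.25 in those labelled KO, against 8.94 and 8.94 in wild type. Groups did not overlap on either probe set. The mean difference was 1.06 (SE 0.25, limma adjusted p = 0.611) on the first, 2.09-fold, and 0.39 (SE 0.16, adjusted p = 0.611) on the second, 1.31-fold.

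Size and order of the Dtx4 differences depended on the probe set. On 1455711_at Dtx4 was at 1.70-fold of the wild-type mean in the library labelled KO 1 and at 2.57-fold in the one labelled KO 2. On 1436545_at the order turned round, with 1.38-fold and 1.25-fold. A difference of 2-fold or more upward was met by 1.15% of all probe sets in the library labelled KO 2 and by 0.195% in the one labelled KO 1. Without the library labelled KO 2, 1455711_at did not pass (0.77, limma adjusted p = 0.528). Without the library labelled KO 1 it passed (1.36, adjusted p = 0.0259), and it was the 1 probe set of the 14 to do so, in a fit in which 10.1% of all probe sets tested passed. Its adjusted p ranged from 0.0259 to 0.9997 over 15 alternative settings. With the mean of its probe sets Dtx4 read 0.73 (adjusted p = 0.513).

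Dtx1 (Entrez gene 14357), a Deltex gene that is itself known as a Notch target in lymphoid cells, overlapped between the groups on both probe sets. On 1425822_a_at it read 7.00 and 7.37 in the libraries labelled KO, against 7.13 and 7.02 in wild type (difference 0.12, SE 0.20). On 1458643_at it read 6.69 and 7.35 in those labelled KO, against 6.86 and 7.38 in wild type (difference -0.10, SE 0.30). On both, the library labelled KO 1 was below the wild-type mean and the one labelled KO 2 above it. Dtx3 (Entrez gene 80904), which lacks the WWE domains by which other Deltex proteins bind Notch, read 9.62 and 9.39 in the libraries labelled KO, against 9.58 and 9.74 in wild type. Its difference of -0.15 (SE 0.18, limma adjusted p = 0.750) was within the spread of the arrays.

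The differences of the library labelled KO 2 varied with signal over the whole array. Over all probe sets with a mean from 4 to 6, its median difference from wild type was 0.23, and from 8 to 10 it was -0.20. In the library labelled KO 1 these medians were 0.07 and -0.05. From 10 to 12, where the brighter Notch1, Rbpj and Dtx4 probe sets lie, the library labelled KO 2 had a median of -0.11. Quantile normalization of the 4 arrays gave -0.50 for Notch1 1418634_at, -0.34 for Rbpj 1454896_at and 1.15 for Dtx4 1455711_at, each with a limma adjusted p of 0.665. The part of this shift in the values of the members beyond that was not tested.

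**Figure D3:**
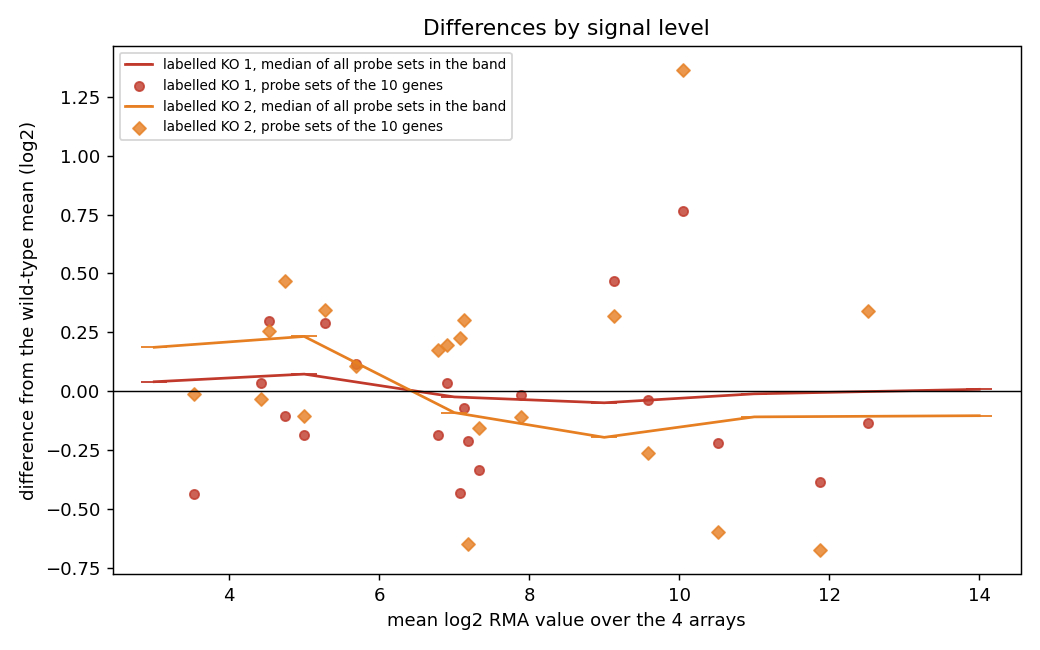
Difference from the wild-type mean (log2, vertical axis) against the mean log2 RMA value over the 4 arrays, with lines for the median of all probe sets in bands of signal and points for the 20 probe sets of the 10 genes. Circles stand for the library labelled KO 1 and diamonds for KO 2. The line of the library labelled KO 2 lies at 0.23 in the band from 4 to 6 and at -0.20 in the band from 8 to 10.

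Other genes of the pathway were read from a list of 52 genes, of which 48 had a probe set naming them alone and 41 had one above the filter. None of their 70 probe sets above the filter passed the test (limma adjusted p from 0.611 to 0.993), and 3 had an unadjusted p under 0.05, all with lower values. Of all probe sets tested, 7.39% had an unadjusted limma p under 0.05, and 1260 of these 1664 had lower values. The groups did not overlap in 13 with higher and 17 with lower values in both libraries labelled KO. Of all probe sets tested, 17.4% and 26.4% did so. The median difference was -0.03, the same to 2 decimals as that of the members. Without the library labelled KO 1, 2 of the 70 passed, Kdm5a 1452360_a_at (-1.34, limma adjusted p = 0.0261) and Tle3 1458512_at (-0.76, adjusted p = 0.0469), both with lower values, in a fit in which 8.33% of all probe sets tested passed with lower values. Without the one labelled KO 2 none did, and 0.0488% of all probe sets passed.

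By role, the ligands had 3 probe sets above the filter and a median difference of 0.06. Jag2, a Jagged ligand, read 8.54 and 8.72 in the libraries labelled KO, against 8.36 and 8.38 in wild type (0.26, limma adjusted p = 0.618). The Delta ligands Dll1, Dll3 and Dll4 lay below the filter. Enzymes that attach sugars to Notch had a median of 0.11 over 7 probe sets. Pofut1, which adds O-fucose, read 8.79 and 8.47 in the libraries labelled KO, against 9.06 and 9.17 in wild type on 1443881_at (-0.48, adjusted p = 0.611). Its other probe sets read 0.13 and 0.11.

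Proteases and other parts of receptor cleavage had a median of -0.10 over 13 probe sets. Furin, which cuts the receptor precursor, read 6.94 and 6.84 in the libraries labelled KO, against 7.16 and 7.25 in wild type (-0.32, limma adjusted p = 0.611). Adam10, the sheddase of activated Notch, went opposite ways on its 2 tested probe sets, at -0.26 and 0.11.

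Coactivators had a median of -0.23 over 8 probe sets, and 6 of the 8 were negative, against 59.3% of all probe sets tested. The acetyltransferase gene Kat2b read 8.46 and 8.78 in the libraries labelled KO on 1457809_at, against 9.09 and 8.99 in wild type (-0.42, limma adjusted p = 0.611). Corepressors had a median of -0.15 over 13 probe sets, with 11 negative. Tle3, a Groucho-family corepressor, read 9.82 and 9.56 in the libraries labelled KO on 1458512_at, against 10.32 and 10.32 in wild type (-0.63, adjusted p = 0.611). Its remaining tested probe sets gave 0.29 and 0.01. Kdm5a gave -0.78 on 1452360_a_at, -0.46 on 1437105_at and -0.15 on 1441318_at. The groups overlapped on the last, where the library labelled KO 1 was higher than the wild-type mean by 0.34.

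Ubiquitin ligases and endocytic regulators had a median of -0.05 over 20 probe sets. Dtx2, the Deltex gene outside the 10 members with the smallest unadjusted p in this role, read 5.90 and 5.55 in the libraries labelled KO, against 6.13 and 6.15 in wild type on 1421720_a_at (-0.41, limma adjusted p = 0.611). On 1439429_x_at it went the other way, by 0.32. The further targets had a median of 0.27 over 6 probe sets. All 6 had a positive difference, against 40.6% of all probe sets tested, but Hes5 1423146_at, at 0.007, and Myc lay close to no difference. In 4 the values were higher with no overlap between the groups, against 17.4%. Hey1, among the 4, read 5.62 and 6.07 in the libraries labelled KO, against 5.60 and 5.58 in wild type. It passed the filter of 5.69 only through the library labelled KO 2, so these counts are not read as a result about the targets. Il2ra, a chain of the interleukin-2 receptor, read 6.12 and 6.18 in the libraries labelled KO, against 5.89 and 5.84 in wild type (0.29, adjusted p = 0.611). Heyl, a relative of Hes1, read 6.09 and 6.44 in the libraries labelled KO, against 6.00 and 5.84 in wild type (0.34, limma adjusted p = 0.611). Myc overlapped between the groups, with a difference of 0.01.

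**Figure D4:**
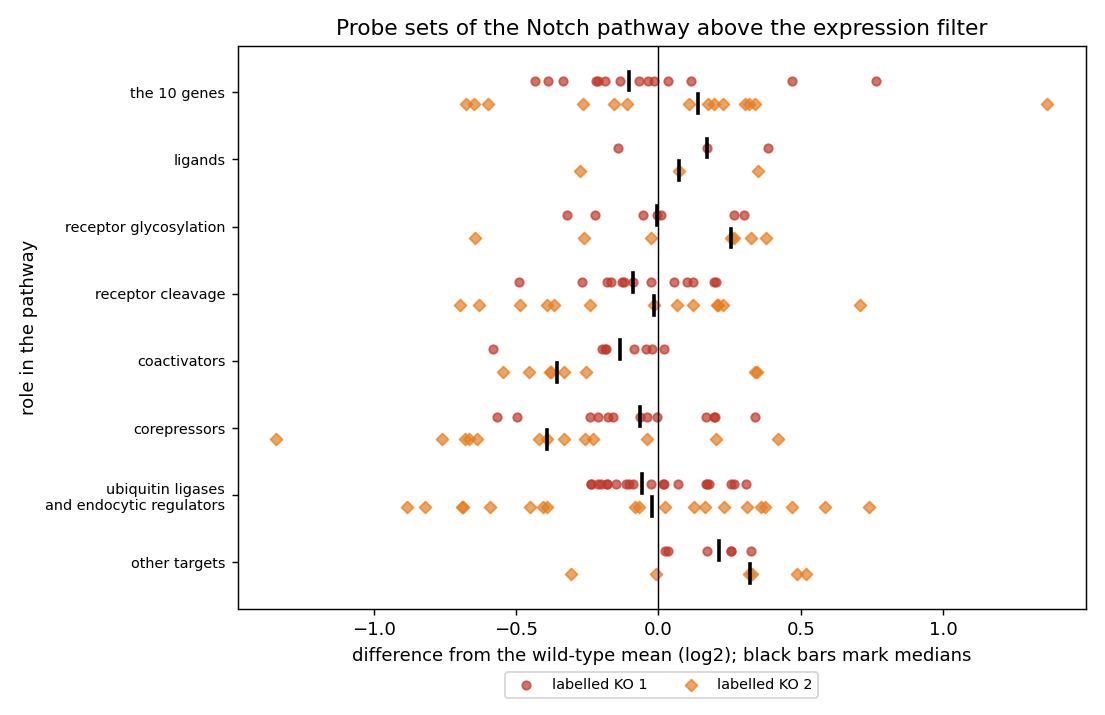
Difference from the wild-type mean (log2, horizontal axis) of each probe set above the filter, by role in the Notch pathway (rows), with circles for the library labelled KO 1, diamonds for KO 2 and black bars for medians. The 14 probe sets of the 10 genes are in the top row and the 70 of the wider list below. Corepressors had medians of -0.07 and -0.39 in the libraries labelled KO 1 and KO 2, and further targets 0.21 and 0.32.

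Markers of other cell types were set beside these values. Each sum of a list is over every gene with a probe set, also those below the filter. Of 6 T-cell genes, 3 lay above the filter, and the summed linear signal of all 6 was 309 and 355 in the libraries labelled KO, against 274 and 268 in wild type. Of 4 B-cell genes, 3 were measured and 2 lay above the filter, with sums of 1010 and 856 in the libraries labelled KO, against 822 and 824 in wild type. Stroma and endothelium, cells that carry Notch ligands and Notch4, had 3 of 6 genes above the filter. The sums of all 6 were 283 and 444 in the libraries labelled KO, against 273 and 486 in wild type, and Col1a1 was high in 1 library of each group. Of the neutrophil genes, Camp, Ngp, S100a8, Ltf and, below the filter, S100a9 read higher in both libraries labelled KO than in either wild-type library. Of all probe sets above the filter, 17.4% did so. Camp was at 9.73 and 9.40 there, against 8.15 and 7.30 in wild type, and Ngp at 8.87 and 8.73, against 7.05 and 6.55. Elane, of the same list, overlapped between the groups, at 6.47 and 6.64 in the libraries labelled KO, against 6.66 and 6.50 in wild type. Mpo, the brightest gene of the list and also active in early myeloid progenitors, read 11.39 and 10.68 in the libraries labelled KO, against 11.79 and 12.30 in wild type. The summed signal of the list, 6 of 8 genes above the filter, was 4535 and 3198 in the libraries labelled KO, against 4200 and 5515 in wild type. Without Mpo, a sum taken after the values were seen, it was 1852 and 1556 in the libraries labelled KO, against 670.2 and 482 in wild type. Erythroid and megakaryocyte genes, 4 of 6 above the filter, summed to 955 and 895 in the libraries labelled KO, against 1087 and 915 in wild type. Dendritic cell and macrophage genes, 4 of 5 above it, summed to 1703 and 1836 in the libraries labelled KO, against 1916 and 2103 in wild type. Of the NK cell genes 1 of 4 lay above it, with list sums of 124 and 146 in the libraries labelled KO, against 167 and 166 in wild type. No marker gene was listed at 0, a value these log2 data do not reach. The part of such cells in the Notch1 and Dtx4 values was not tested.

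Other genes followed the pattern of Notch1 or Dtx4 closely over the 4 arrays, which is too few to single any out. Likeness was the root mean square distance between log2 values centred on each probe set's wild-type mean. The nearest to Notch1 1418634_at were Atg2a (distance 0.0028), Vapb (0.012) and Tmem141 (0.022). The nearest to Dtx4 1455711_at were Acp5 (0.072), Ciapin1 (0.088) and Hsph1 (0.099).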

How the data were processed

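The values that the authors deposited are on the log2 scale, and the submitters' processing notes name RMA, a method that subtracts background, makes the arrays' distributions alike and combines the probes of a set. No source used here gives its version or says which arrays were normalized together. Total RNA of sorted cells was amplified and biotin-labelled, per the labels' protocols. The 4 columns had medians from 5.65 to 5.76 and were used as deposited.

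Of 45037 probe sets, 34945 carried 1 gene symbol, 932 several and 9160 none. Gene identifiers of all 10 members matched RefSeq (GRCm38.p6), and 0 symbols changed. Probe sets with a mean of at least 5.69 were fitted with limma 3.58.1 in R 4.3.3 (lmFit, eBayes, two-sided, Benjamini-Hochberg at 0.05), which gave every adjusted p. Standard errors (SE) use the moderated variance. Labels share replicate numbers, but nothing says that these pair the arrays.

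Named were all members, Lyl1, in each role of the wider list every gene past the threshold or else the one with the smallest p, and the 3 genes nearest to Notch1 and Dtx4 in pattern. Other probe sets or genes are given beside these, chosen after their values were seen. Members and lists were chosen with earlier results of these data known. Alternatives were the filter, the probe-set rule, normalization, prior, array weights, threshold, replicate block and each library left out.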

Additional observations from a re-analysis of the deposited data

How the results depend on the processing

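Over 16 alternative settings, 0 of the members' probe sets passed in 15 (limma), and the fits that left out 1 library gave 0 to 1. The 1 was Dtx4 1455711_at without the library labelled KO 1. The wider Notch list likewise had 0 calls in 15 settings and 0 to 2 in the fits without 1 library. Over all probe sets, the 2 calls became 1 with the stricter filter, with the highest probe set per gene and with median centring, 0 with the mean of probe sets per gene, 10 with array weights and 8 at a threshold of 0.10. Leaving out 1 library gave 0 to 2269, with 0 without either wild-type library, 11 without the library labelled KO 2 and 2269 without the one labelled KO 1. With the replicate number as a block 3 probe sets passed, 0 of them members. The difference between arrays 1 and 2 of the Lyl1-null group correlated at -0.38 with that of the wild-type group across tested probe sets, and a crossed pairing, added after the data had been seen, gave 2 calls. Of the 14 tested probe sets, 9 kept 1 sign in every setting, both of Notch1 and of Dtx4 among them. The other 5 changed sign, all with a main difference of at most 0.12 in size. Where the groups did not overlap, as for Notch1 and Dtx4, leaving out 1 library could not change the sign. Quantile normalization turned Nrarp 1417986_at to 0.085, Rbpj 1448957_at to 0.088 and Dtx1 1458643_at to 0.026. Without 1 library, Nrarp 1417986_at ran from -0.20 to 0.19, Rbpj 1448957_at from -0.18 to 0.059, Notch2 1455556_at from -0.13 to 0.34, Dtx1 1425822_a_at from -0.070 to 0.30 and Dtx1 1458643_at from -0.43 to 0.23. The cause of these changes was not tested. A fit without 1 library leaves a lone library that is assumed to vary like the other group.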

Other observations

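Probe sets of the same gene disagreed more in the library labelled KO 2 than elsewhere. Among 4717 genes with at least 2 probe sets above the filter, the differences from wild type of a gene's probe sets spanned 1 or more on the log2 scale in 836 genes (17.7%) in that library. In the library labelled KO 1 this was so for 48 genes (1.02%), and between the wild-type libraries for 86 (1.82%). The median span was 0.50 in the library labelled KO 2, 0.22 in the one labelled KO 1 and 0.26 between the wild-type libraries.

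The members did not follow this in all cases. Over the 5 of the 10 genes with at least 2 such probe sets, the median span was 0.33 in the library labelled KO 2, 0.25 in the one labelled KO 1 and 0.41 between the wild-type libraries. Dtx4 had 1.05 in the library labelled KO 2, 0.30 in the one labelled KO 1 and 0.18 between the wild-type libraries, and Rbpj had 0.79, 0.25 and 0.41 in that order. Nrarp had 0.33 and 0.15 in the libraries labelled KO 2 and KO 1, but 0.54 between the wild-type libraries. For Notch1 the spans were 0.03 in the library labelled KO 2, 0.17 in the one labelled KO 1 and 0.29 between the wild-type libraries, and for Dtx1 0.08, 0.36 and 0.63.

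Over 21 genes of the wider Notch list the median span was 0.76 in the library labelled KO 2, 0.25 in the one labelled KO 1 and 0.37 between the wild-type libraries. In the library labelled KO 2, 5 of the 21 spanned 1 or more (23.8%): Adam10, Dtx2, Dtx3l, Mib1 and Tle3. Kat2b ran the other way, with 0.29 in that library and 0.40 in the one labelled KO 1.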
